A study of Homo sapiens with 4 samples.

Results

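The comparison described here sets 1 RNA sequencing library of BEAS-2B cells given the wild-type PDZ peptide and lipopolysaccharide (WT PDZ+LPS) against 1 library of the same cells given lipopolysaccharide alone (LPS). It uses 2 of the 4 libraries of the series, chosen by their labels, and 11385 of the 24424 gene symbols in the files, those whose normalized counts averaged 64 or more in the pair. BEAS-2B is an established cell line from human bronchial epithelium, with the genotype given as wild type in all 4 libraries. In the WT PDZ+LPS group the cells had the peptide for 24 hr and then LPS for 2 hr, and in the mut PDZ+LPS group a mutant form of the peptide was given in the same way. The LPS group had LPS for 2 hr with no peptide, and the Control group had neither. The peptide was modelled on the first PDZ domain of zonula occludens-1 (ZO-1, gene TJP1) and, by the study's methods, carried a TAT stretch for entry into cells and a fluorescein tag, which the LPS library lacked as well. The design holds no library of cells given a peptide without LPS, so what the peptide does on its own cannot be told apart from what it does under LPS.

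Lipopolysaccharide, the outer membrane component of gram-negative bacteria, is sensed by the Toll-like receptor TLR4 with its partners CD14 and MD-2. Adaptors and kinases of the MyD88 and TRIF branches then release the NF-kB transcription factors from their I-kB inhibitors, activate AP-1 through MAP kinases, and induce interferon regulatory factors. In airway epithelium the genes that follow include chemokines that attract leukocytes, cytokines of the IL-1 and IL-6 families, adhesion molecules and matrix proteases. PDZ domains are small protein modules that bind the ends of partner proteins, and ZO-1 uses them to assemble tight junctions.

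The promoters of 4 genes are printed first, as examples in which a motif was found. They come from 3 groups described below and were not picked as typical members of them. VCAM1 (an adhesion molecule for leukocytes) and CCL20 (a chemokine that attracts CCR6-bearing lymphocytes and dendritic cells) carry NF-kB motifs, IFIT3 (an interferon-stimulated antiviral protein) carries the interferon-stimulated response element, and HSPA5 (the endoplasmic reticulum chaperone BiP) carries the endoplasmic reticulum stress element. Each run is the 250 bases before the annotated start in RefSeq on GRCh38.p14, written 5′ to 3′ on the gene's own strand, and capitals mark every match on either strand. The windows are chr1:100719492-100719741 (plus strand) for VCAM1, chr2:227813592-227813841 (plus strand) for CCL20, chr10:89327747-89327996 (plus strand, the first of 2 starts in the table) for IFIT3, and chr9:125241344-125241593 (minus strand) for HSPA5.
VCAM1: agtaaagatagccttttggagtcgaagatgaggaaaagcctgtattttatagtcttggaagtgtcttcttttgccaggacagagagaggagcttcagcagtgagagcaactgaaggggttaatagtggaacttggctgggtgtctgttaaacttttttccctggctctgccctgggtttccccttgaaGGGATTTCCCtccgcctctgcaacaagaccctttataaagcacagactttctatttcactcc
CCL20: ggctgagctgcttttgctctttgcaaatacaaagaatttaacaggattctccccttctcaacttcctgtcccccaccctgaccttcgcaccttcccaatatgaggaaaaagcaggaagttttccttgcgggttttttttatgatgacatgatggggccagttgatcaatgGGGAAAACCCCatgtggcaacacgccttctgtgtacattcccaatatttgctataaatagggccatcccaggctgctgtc
IFIT3: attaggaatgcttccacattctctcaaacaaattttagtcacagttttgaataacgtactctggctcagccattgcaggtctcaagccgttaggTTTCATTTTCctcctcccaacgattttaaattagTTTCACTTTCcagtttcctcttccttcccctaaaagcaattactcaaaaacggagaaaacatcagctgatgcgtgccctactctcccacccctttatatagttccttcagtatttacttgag
HSPA5: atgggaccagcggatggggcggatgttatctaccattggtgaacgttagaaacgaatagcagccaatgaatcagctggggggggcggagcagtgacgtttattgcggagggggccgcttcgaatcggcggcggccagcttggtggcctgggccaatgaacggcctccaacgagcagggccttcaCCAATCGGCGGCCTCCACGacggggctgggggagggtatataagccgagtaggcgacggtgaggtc

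The letters searched for were GGGNNTTNCC for NF-kB, GAAANNGAAA for the interferon element and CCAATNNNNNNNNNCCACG for the stress element. VCAM1 held 1 NF-kB match that began 62 bases before the start, CCL20 held 2 overlapping matches, IFIT3 held 2 interferon elements and HSPA5 held 1 stress element in the capital letters. Among 27305 genes with a promoter of this length in the table, 6.14% held the NF-kB letters, 3.71% the interferon letters and 0.0916% the stress letters. The stress letters were found in 6 of the 31 genes of the unfolded protein and integrated stress response that are described further on, all of which had a promoter in the table. Promoters were matched for 99 of the 133 LPS-induced genes and 38 of the 48 interferon-stimulated genes defined below, under 80% of either group, so a share over those groups is void and none is given. A match is a run of letters and not a measured binding site.

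The files summed to 23446600 counts for WT PDZ+LPS against 25155647 for LPS, beside 24823347 for Control and 19682929 for mut PDZ+LPS. Counts were divided by median-of-ratios size factors from the 4 libraries to give normalized counts, and 1 was added to each before the log2 ratio of WT PDZ+LPS to LPS was taken. With 1 library a side no ratio could be checked against replicates, and no p-value was computed. The 95% intervals given in brackets after the ratios are exact binomial (Clopper-Pearson), compare these 2 libraries rather than the treatments, and cover the error of counting alone, because reads that carry no molecular identifier are not independent molecules. A gene is called higher or lower here when the ratio was at least 1.2-fold, the interval left out equal levels and the mean was at least 64 normalized counts. As these are whole cultures, fewer cells with a transcript and less of it in each cell cannot be told apart.

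The pair of libraries lay close together. Of the 11385 genes with at least 64 normalized counts, 271 (2.38%) were called higher and 301 (2.64%) lower in WT PDZ+LPS than in LPS, and the median log2 ratio was 0.0081. The central 95% of the log2 ratios ran from -0.32 to 0.30. At 1.5-fold the calls numbered 34 higher (0.299%) and 41 lower (0.36%), and at 2-fold 4 in each direction (0.0351%). Without the count minimum, 2106 genes differed by 2-fold or more, of which 8 had 64 or more normalized counts.

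The spread of the ratio followed the count. From 16 to 64 normalized counts the central 95% of 1609 genes ran from -1.05 to 0.92 on the log2 scale, and 74 of them were 2-fold apart. In the next bin, from 64 to 4 times that count, the range narrowed to between -0.53 and 0.49 over 2137 genes, and 7 were 2-fold apart. In the bin after it, up to 1024, it was -0.27 to 0.26, and from 1024 to 4096 it was -0.19 to 0.18. No gene with 1024 or more normalized counts differed by 2-fold. The share of genes called followed the count too. In the bin that starts at 64, 7.11% were called higher and 7.25% lower, and from 1024 to 4096 these were 0.323% and 0.646%. The shares over all genes given beside the lists below are not matched for count. The 95% counting interval left out equal levels in 23.8% of the 11385 genes. That share was 14.4% in the bin that starts at 64 and 72.7% among the 11 genes with 65536 or more. Counting error alone gave a median SD of 0.17 in the bin that starts at 64 and 0.047 in the bin that starts at 1024, and the SD of the ratios read from their quartiles was 0.23 and 0.08. The libraries therefore differed by more than counting error in both bins, and whether that excess lay between the cultures, the library preparations or the treatments cannot be told apart.

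**Figure D1:**
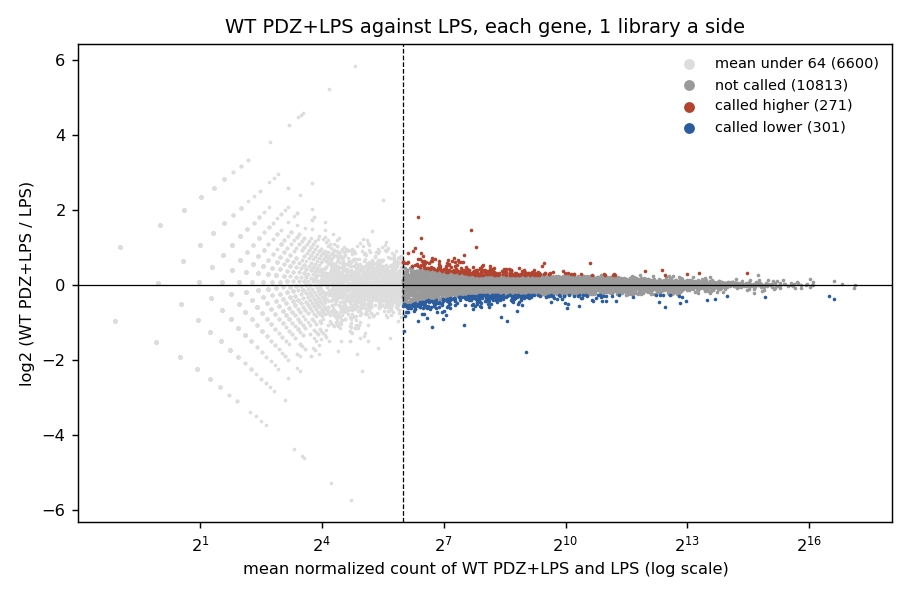
Each point is a gene, with its mean normalized count in the 2 libraries on a log-scaled x axis and the log2 ratio of WT PDZ+LPS to LPS on the y axis. The dashed line marks 64 normalized counts; the cloud fans out to its left, and 271 red and 301 blue genes to its right were called higher and lower.

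To ask how the genes that respond to LPS behaved, the responding genes were picked on the other pair of libraries, mut PDZ+LPS against Control, so that neither library of the ratio took part in the choice. There were 133 genes at least 4-fold higher in mut PDZ+LPS than in Control, called LPS-induced here, although that library also had the mutant peptide. In WT PDZ+LPS against LPS, 32 of the 133 were called lower (24.1%, against 2.64% of all genes) and 6 higher (4.51%, against 2.38%). Their median log2 ratio was -0.14, with 104 below 0, beside 0.0081 over all 11385 genes. The WT PDZ+LPS level was thus 90.5% of the LPS level at the median. Taking the Control level off both, a median of 88.5% of the LPS increment was present in WT PDZ+LPS.

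On the log2 scale the shift was larger where the response was larger, but the share of the LPS increment present changed little. At the median it was 89.8% in the genes at least 2-fold higher in mut PDZ+LPS than in Control. It was 88.5% at 4-fold and 86.7% at 16-fold. A ratio on the log2 scale falls further with the size of the response even where the same share of the increment is present. Over the 368 genes at least 2-fold higher in mut PDZ+LPS than in Control, the median log2 ratio was -0.11. Of them 58 were called lower (15.8%) and 12 higher (3.26%). Over the 37 genes at least 16-fold higher the median was -0.19, with 14 called lower (37.8%) and 3 higher (8.11%). The shares over all genes were 2.64% and 2.38%. By bins of the mut PDZ+LPS/Control log2 ratio, the median was -0.075 from 1 to 2, -0.11 from 2 to 3 and -0.17 from 3 to 4. The 10812 genes less than 2-fold apart had a median of 0.0098, with 2.14% called higher and 2.18% lower. In the other direction, 205 genes were at least 2-fold lower in mut PDZ+LPS than in Control. They are not called LPS-repressed here, because their median log2 ratio of LPS to Control was only -0.26, against -1.18 for mut PDZ+LPS to Control, and their median transcript length was 6734 bases, against 3512 in the genes less than 2-fold apart. Their median in WT PDZ+LPS against LPS was 0.048, with 28 called higher (13.7%) and 7 lower (3.41%). With a minimum of 16 normalized counts that median was 0.023.

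The mut PDZ+LPS library differed from Control by transcript length, with a median log2 ratio of 0.35 in the shortest 10% of transcripts and -0.41 in the longest 10%. In WT PDZ+LPS against LPS the same medians were -0.0021 and 0.028. In mut PDZ+LPS against LPS they were 0.39 and -0.48, with -0.20 at the lowest and 0.33 at the highest GC content. The mut PDZ+LPS levels given for single genes below were not corrected for this. Their place above or below LPS is therefore not to be read as an effect of the mutant peptide. When the choosing ratio was first corrected for transcript length and GC content, the median over the LPS-induced genes was -0.15 with 33 called lower, and the median over the genes at least 2-fold lower was 0.071 with 17 called higher.

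**Figure D2:**
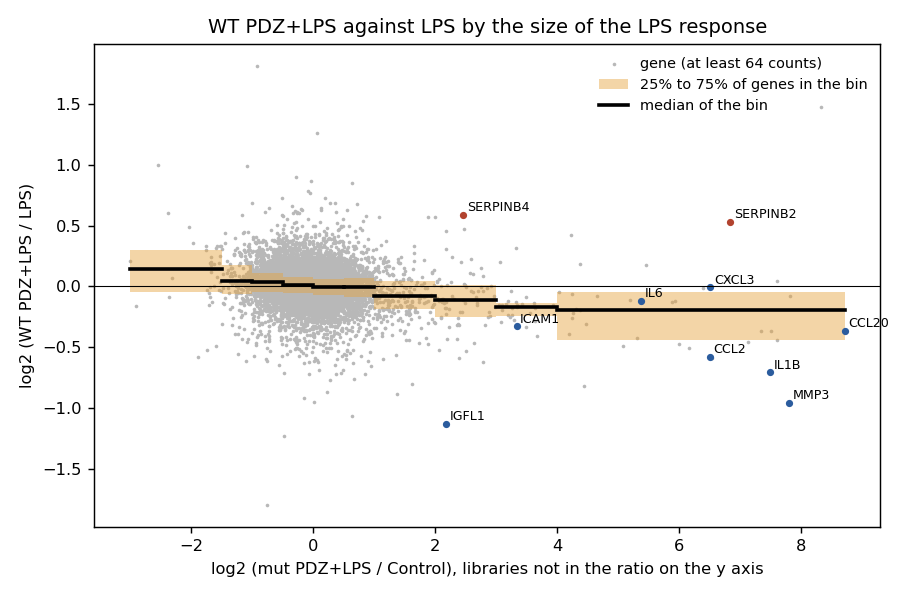
The x axis is the log2 ratio of mut PDZ+LPS to Control and the y axis the log2 ratio of WT PDZ+LPS to LPS, 1 point for each gene with at least 64 normalized counts. Black bars are bin medians and orange boxes the middle 50% of genes; the bars step down from 0.15 at the left to -0.19 at the right, while SERPINB2 and SERPINB4 lie above 0.

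MMP3 (stromelysin-1, a metalloproteinase that cleaves matrix proteins) had 257 normalized counts in WT PDZ+LPS against 501 in LPS, beside 0.870 in Control and 416 in mut PDZ+LPS. It was near absent in Control, and WT PDZ+LPS was the lowest of the 3 libraries given LPS. Its log2 ratio was -0.96 (-1.18 to -0.74), so that 51.3% of the LPS increment was present. IL1B (the pyrogenic cytokine interleukin-1 beta) had 340.3 normalized counts in WT PDZ+LPS against 556 in LPS, beside 2.61 in Control and 644 in mut PDZ+LPS, a log2 ratio of -0.71 (-0.91 to -0.51). Its relative IL1A, which cells also release as an alarm signal, had 1077 in LPS and 835 in WT PDZ+LPS, a log2 ratio of -0.37 (-0.50 to -0.24). Both were called lower, as the 2 called of the 7 measured members of the IL-1 family (28.6%, against 2.64% of all genes), whose median was -0.16.

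CCL2 (monocyte chemoattractant protein) had 4469 normalized counts in WT PDZ+LPS against 6675 in LPS, beside 86.2 in Control and 7896 in mut PDZ+LPS. Again WT PDZ+LPS stood below LPS and mut PDZ+LPS stood above both, and the log2 ratio was -0.58 (-0.63 to -0.52). CCL20, printed above with its NF-kB letters, had 11428 normalized counts in WT PDZ+LPS against 14724 in LPS, beside 44.4 in Control and 18981 in mut PDZ+LPS, a log2 ratio of -0.37 (-0.40 to -0.33). Of the 11 CC and CX3C chemokines of the list in the files, these 2 had enough counts. Both were called lower (100%, against 2.64% of all genes).

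The CXC chemokines, most of which attract neutrophils, lay closer to the LPS library. All 7 with enough counts lay below 0, with a median log2 ratio of -0.12. CXCL6 was the 1 called lower (14.3%, against 2.64% of all genes), at -0.31 (-0.39 to -0.22). CXCL8 (interleukin-8), a main neutrophil attractant of human airways, had 34700.2 normalized counts in WT PDZ+LPS against 37516 in LPS, beside 1307 in Control and 47644 in mut PDZ+LPS. The drop from LPS to WT PDZ+LPS was a log2 ratio of -0.11 (-0.13 to -0.092), short of the 1.2-fold needed for a call. CXCL3, close in sequence to CXCL1 and CXCL2, had 5087 normalized counts in LPS and 5065 in WT PDZ+LPS, a log2 ratio of -0.0063 (-0.062 to 0.049), so 99.6% of its increment was present. IL6, the main inducer of acute-phase proteins, had 9299 normalized counts in WT PDZ+LPS against 10089 in LPS, beside 352 in Control and 14629 in mut PDZ+LPS, with a log2 ratio of -0.12 (-0.16 to -0.077). No gene of the IL-6 family list was called among 9, and the same was true of the 10 colony-stimulating factors and other cytokines, in which CSF1 (macrophage colony-stimulating factor) had the most counts and a log2 ratio of -0.14.

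Of 11 adhesion and surface molecules, 3 were called lower (27.3%, against 2.64% of all genes) and 1 higher (9.09%, against 2.38%), and the median was near 0. VCAM1, also printed above, had 107 normalized counts in WT PDZ+LPS against 162 in LPS, beside 0.870 in Control and 173 in mut PDZ+LPS, a log2 ratio of -0.59 (-0.96 to -0.24). ICAM1, which binds leukocyte integrins, had 27307 normalized counts in WT PDZ+LPS against 34318 in LPS, beside 2834 in Control and 28543 in mut PDZ+LPS, and mut PDZ+LPS lay nearer to WT PDZ+LPS than to LPS. Its log2 ratio was -0.33 (-0.35 to -0.31). CD83, a surface marker of activated cells, was called lower at -0.52 (-0.77 to -0.28), and ICAM5, a neuronal relative of ICAM1 with few counts, was called higher at 0.37 (0.035 to 0.71). The 11 members had a median log2 ratio of -0.011.

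Proteases of the plasminogen system were called lower beside MMP3. PLAU (urokinase) had 4280.5 normalized counts in WT PDZ+LPS against 5898 in LPS, beside 910.3 in Control and 5654 in mut PDZ+LPS, a log2 ratio of -0.46 (-0.52 to -0.41). PLAT (tissue plasminogen activator) had a log2 ratio of -0.35 (-0.53 to -0.18), and TFPI2, a protease inhibitor of the matrix, had -0.31 (-0.46 to -0.17). In contrast SERPINB2, the inhibitor of urokinase known as PAI-2, had 294 normalized counts in WT PDZ+LPS against 203 in LPS, beside 1.74 in Control and 311 in mut PDZ+LPS, and WT PDZ+LPS lay close to mut PDZ+LPS above LPS. SERPINB2 was called higher at 0.53 (0.27 to 0.79). Of the 13 measured members of the metalloproteinase and plasminogen list, 4 were called lower and 1 higher (30.8% and 7.69%, against 2.64% and 2.38% of all genes), with a median of -0.092. Another serpin of the same chromosomal cluster, SERPINB4, an inhibitor of serine proteases in squamous epithelium, had 563 in LPS and 849 in WT PDZ+LPS, a log2 ratio of 0.59 (0.44 to 0.75), and its reads may be shared with the near-identical SERPINB3.

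**Figure D3:**
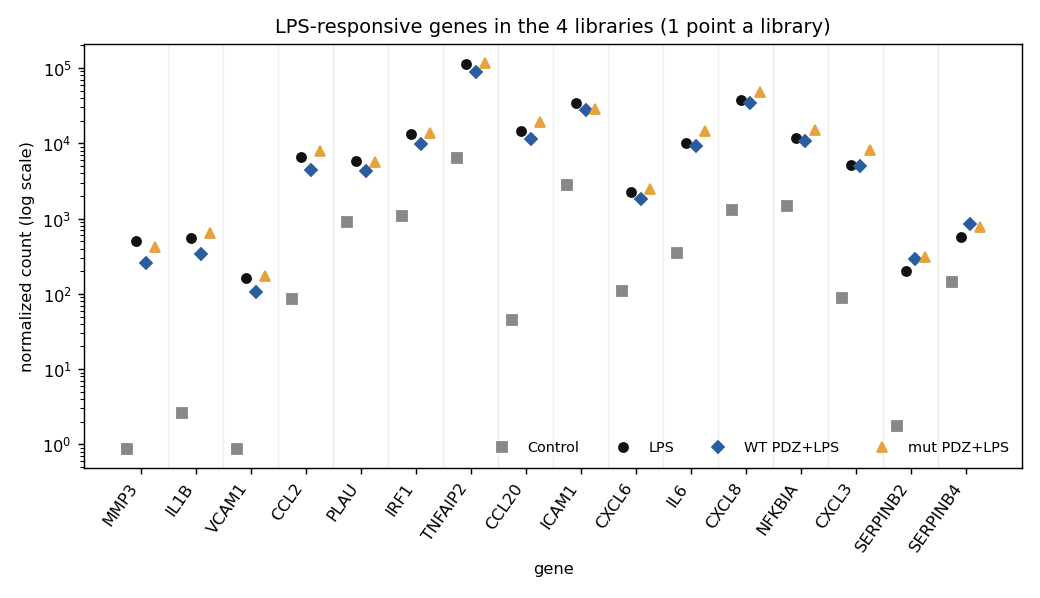
Normalized counts on a log-scaled y axis for 16 genes in the 4 libraries, 1 point a library and so no error bar. From MMP3 to CXCL6 the WT PDZ+LPS diamond lies below the LPS circle, for CXCL3 they coincide, and for SERPINB2 and SERPINB4 the order is turned.

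The 5 lowest of the 133 LPS-induced genes were IGFL1, MMP3, VNN1, IL1B and C2CD4A, and the 5 highest were H3F3A, SERPINB4, SERPINB2, GPRC5B and TNFSF14. IGFL1, a secreted insulin growth factor-like protein, had 65.6 normalized counts in WT PDZ+LPS against 145 in LPS, beside 29.6 in Control and 137 in mut PDZ+LPS. Its log2 ratio of -1.13 (-1.58 to -0.71) was the lowest of the 133. VNN1, which makes pantothenate and cysteamine, had 84.7 in LPS and 47.5 in WT PDZ+LPS, a ratio of -0.82 (-1.38 to -0.31), and C2CD4A had -0.63 (-1.15 to -0.13). GPRC5B, an orphan receptor induced by retinoic acid, was called higher at 0.47 (0.13 to 0.82). TNFSF14 (LIGHT) stood at 0.46 (-0.015 to 0.95) and was not called. The other higher calls were TNFRSF6B, a decoy receptor, and the read-through symbol RPL36A-HNRNPH2. The 32 called lower also held PTP4A3, KRT6B, ELF3, C15orf48, C6orf132, NFATC1, ICOSLG, RARRES1, HIVEP3, STC1, SDC4 and AMIGO2, which are outside the lists and were named after their values had been seen. Other genes of the 32, among them MMP3, IL1B, CCL2, VCAM1, IRF1, GBP2 and GBP3, are also called members of the lists. The list shares therefore recount part of the same genes.

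The transcripts that encode the NF-kB proteins lay a little lower and none was called, and protein was not measured here. All 11 subunits and I-kB proteins had enough counts, 9 lay below 0, and the median log2 ratio was -0.15. The subunit NFKB1 had 11534 normalized counts in WT PDZ+LPS against 12845 in LPS, beside 1909 in Control and 7445 in mut PDZ+LPS, and its log2 ratio was -0.16 (-0.19 to -0.12). NFKB2 had -0.25 (-0.30 to -0.20) and RELB had -0.25 (-0.35 to -0.15), the lowest of the subunits and both components of the noncanonical arm. RELA, the transactivating partner of NFKB1, had -0.11, and REL had 0.033 (-0.062 to 0.13). The main inhibitor NFKBIA had 10599 normalized counts in WT PDZ+LPS against 11594 in LPS, beside 1471 in Control and 14814 in mut PDZ+LPS, which is again highest in mut PDZ+LPS, and its log2 ratio was -0.13.

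Among 16 feedback regulators of NF-kB, 14 lay below 0 with a median of -0.095, and 1, TNFAIP2, was called lower (6.25%, against 2.64% of all genes). TNFAIP2, a TNF-responsive gene linked to tunnelling nanotubes between cells, was among the 11 genes averaging 65536 or more normalized counts, with 87567 normalized counts in WT PDZ+LPS against 114641 in LPS, beside 6329 in Control and 115729 in mut PDZ+LPS. Its log2 ratio was -0.39 (-0.40 to -0.38), with a narrow interval at this count, where 72.7% of the intervals left out equal levels. At the top of the pathway, the list of LPS receptors and kinases had 22 measured members and a median of 0.037. In it 2 were called higher (9.09%, against 2.38% of all genes) and none lower. IRAK4, the kinase that MyD88 recruits, was called higher at 0.37 (0.12 to 0.64), and TRAF6, the ubiquitin ligase downstream of it, at 0.28 (0.10 to 0.46). Both were also lower in LPS than in Control, with 286 and 538 normalized counts in Control against 212 and 429.9 in LPS.

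Of 48 measured interferon-stimulated genes, 11 were called lower (22.9%, against 2.64%) and 2 higher (4.17%, against 2.38%), 35 lay below 0, and the median log2 ratio was -0.087. IFIT3, printed above with its interferon elements, had 834 normalized counts in WT PDZ+LPS against 1277 in LPS, beside 588 in Control and 1096 in mut PDZ+LPS, the lowest LPS-treated level being in WT PDZ+LPS. The log2 ratio was -0.61 (-0.74 to -0.49), and that of its partner IFIT2 was -0.39 (-0.64 to -0.14). GBP2, a guanylate-binding protein against intracellular pathogens, had 293 normalized counts in WT PDZ+LPS against 424 in LPS, beside 71.4 in Control and 409 in mut PDZ+LPS, with a log2 ratio of -0.53 (-0.75 to -0.32), and its relatives GBP3 and GBP1 had -0.34 and -0.28.

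IRF1, the transcription factor that drives many of these genes, had 9895 normalized counts in WT PDZ+LPS against 13155 in LPS, beside 1069 in Control and 13572 in mut PDZ+LPS. It was high in all 3 libraries given LPS and lowest of them in WT PDZ+LPS, with a log2 ratio of -0.41 (-0.45 to -0.37). The other members called lower were OAS1 at -0.52, XAF1 at -0.45, SAMD9L at -0.39, USP18 at -0.34 and IRF2 at -0.27. OAS1 and USP18 were no higher in LPS than in Control, with 219 and 196 normalized counts in Control against 166 and 190.0 in LPS. The helicase DDX60 and the antiviral gene IFI44 were called higher, at 0.29 (0.14 to 0.44) and 0.36 (0.11 to 0.62). In the JAK-STAT and SOCS list, STAT5A and the feedback inhibitor SOCS3 were the 2 called of 16, both lower (12.5%, against 2.64% of all genes), at -0.44 and -0.29.

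The unfolded protein and integrated stress response had the second highest list median among lists with at least 5 measured members, 0.12 over 31 genes, of which 23 lay above 0. HSPA5, whose stress element is printed above, had 25283 normalized counts in WT PDZ+LPS against 20248 in LPS, beside 19995 in Control and 25805 in mut PDZ+LPS. The LPS library was level with Control and both peptide libraries lay above, and the log2 ratio was 0.32 (0.29 to 0.35). Other proteins of the endoplasmic reticulum that help folding stood on the same side, short of a call, with HSP90B1 (GRP94) at 0.26 (0.23 to 0.28), PDIA4 at 0.23, HYOU1 at 0.19 and CALR (calreticulin) at 0.13. ERN1, which encodes the stress sensor IRE1, was called higher at 0.28 (0.11 to 0.46), whereas its substrate XBP1 had -0.13 and the sensor EIF2AK3 (PERK) had -0.15.

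The member of this list called lower was ASNS (asparagine synthetase), which had 1044 normalized counts in WT PDZ+LPS against 1549 in LPS, beside 1387 in Control and 976 in mut PDZ+LPS, with both peptide libraries below both others, and its log2 ratio was -0.57 (-0.68 to -0.46). PSAT1 and PHGDH, which make serine, had -0.19 (-0.27 to -0.10) and -0.18 (-0.27 to -0.10), and neither was called. ATF4, the transcription factor of the integrated stress response, was at -0.061. Other members lay on either side, with DDIT3, SESN2 and TRIB3 at 0.25, 0.16 and 0.054 and CHAC1 at -0.34 (-0.70 to 0.0056), none of them called. The list thus held 2 genes called higher and 1 lower, 6.45% and 3.23% of its members, against 2.38% and 2.64% of all genes. The 18 heat shock chaperones of the cytosol and mitochondria had a median of 0.076 and no call.

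Metallothioneins, small proteins that bind zinc and copper, had the highest median of such lists, 0.19 over 6 members. MT1F had 171 normalized counts in WT PDZ+LPS against 106 in LPS, beside 129.7 in Control and 214 in mut PDZ+LPS, with LPS the lowest library, and a log2 ratio of 0.68 (0.33 to 1.04). MT1M was called higher at 0.46 (0.042 to 0.90). With MT1F, 2 of the 6 were called higher (33.3%, against 2.38% of all genes) and none lower. Both had counts in the bin that starts at 64, where 7.11% of genes were called higher. The abundant MT1X and MT2A were not called, and the metallothionein genes are near-identical, so the split of reads among them is uncertain. Of 45 collagens, laminins and integrins, 3 were called higher (6.67%, against 2.38% of all genes) and none lower, with a median of 0.072. Among them were the collagen receptor subunit ITGA2 at 0.33 (0.14 to 0.52) and the collagen chain COL8A1 at 0.27 (0.22 to 0.33).

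Calls of 1 or 2 members stood in other lists, to be read beside the 2.64% of all genes called lower and 2.38% higher. In the antioxidant list AKR1C2, an aldo-keto reductase with near-identical relatives, had -0.59 (-0.85 to -0.35) and HMOX1 (heme oxygenase) had -0.29 (-0.47 to -0.12), both lower. They were the 2 called of 27 measured members (7.41%). SGK1, a kinase induced by glucocorticoids, was lower at -0.44 (-0.59 to -0.30), the 1 called of 12 glucocorticoid receptor targets (8.33%). Lower calls with log2 ratios between -0.42 and -0.28 were PI3 (elafin, an elastase inhibitor), TGFB3, DUSP6 (an ERK phosphatase), CD40, BBC3 (the death promoter PUMA), KLF6 and TGFBI. TGFB3 and TGFBI were the 2 called of 22 TGF-beta and BMP genes (9.09%). DUSP6 was the 1 called of 14 MAP kinase phosphatases and Sprouty genes (7.14%), and CD40 of 15 TNF superfamily members (6.67%). Higher calls between 0.28 and 0.56 were CYR61, C1S of the complement system, HILPDA of the hypoxia response, the survival gene BCL2 and the histone HIST1H2BK. In the acute-phase list of 14, PI3 was the lower call and C1S the higher (7.14% each). KLF6 and CYR61 stood likewise in the early gene list of 14 (7.14% each), and BBC3 and BCL2 among 24 p53 and BCL2 family genes (4.17% each). HILPDA was the 1 called of 26 glycolysis and hypoxia genes (3.85%), and HIST1H2BK of 2 histones (50%).

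In 19 of the 42 lists no member was called, and their medians ran from -0.15 to 0.076. They included the 9 AP-1 factors, 18 tight junction and polarity genes, 8 RGS genes, 20 genes of mitochondrial fission, fusion and mitophagy, 26 of the cytoskeleton, 33 of cholesterol and fatty acid synthesis, 31 of S phase, 36 of mitosis, 46 proteasome subunits and 78 nuclear-encoded oxidative phosphorylation genes. TJP1, the gene of ZO-1 on which the peptide was modelled, had 4364 normalized counts in WT PDZ+LPS against 4319.6 in LPS, beside 3844 in Control and 3185 in mut PDZ+LPS, a log2 ratio of 0.015 (-0.045 to 0.075). DNM1L, the fission enzyme Drp1, had 3628 in LPS and 3671 in WT PDZ+LPS, a log2 ratio of 0.017 (-0.049 to 0.082). RGS12, a PDZ-containing regulator of G-protein signalling, had 0.022 (-0.18 to 0.22), and MTOR had -0.0097 (-0.073 to 0.054). The intervals of these 4 genes held equal levels. CLDN1, the claudin with the most counts in the tight junction list, had 913 normalized counts in Control and 7058 in LPS, and its WT PDZ+LPS/LPS log2 ratio was 0.0087 (-0.038 to 0.056). SAA1, an acute-phase protein, had 19777 normalized counts in WT PDZ+LPS against 17615 in LPS, beside 13429.8 in Control and 28001 in mut PDZ+LPS, with a log2 ratio of 0.17 (0.14 to 0.20), and it was not called.

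**Figure D4:**
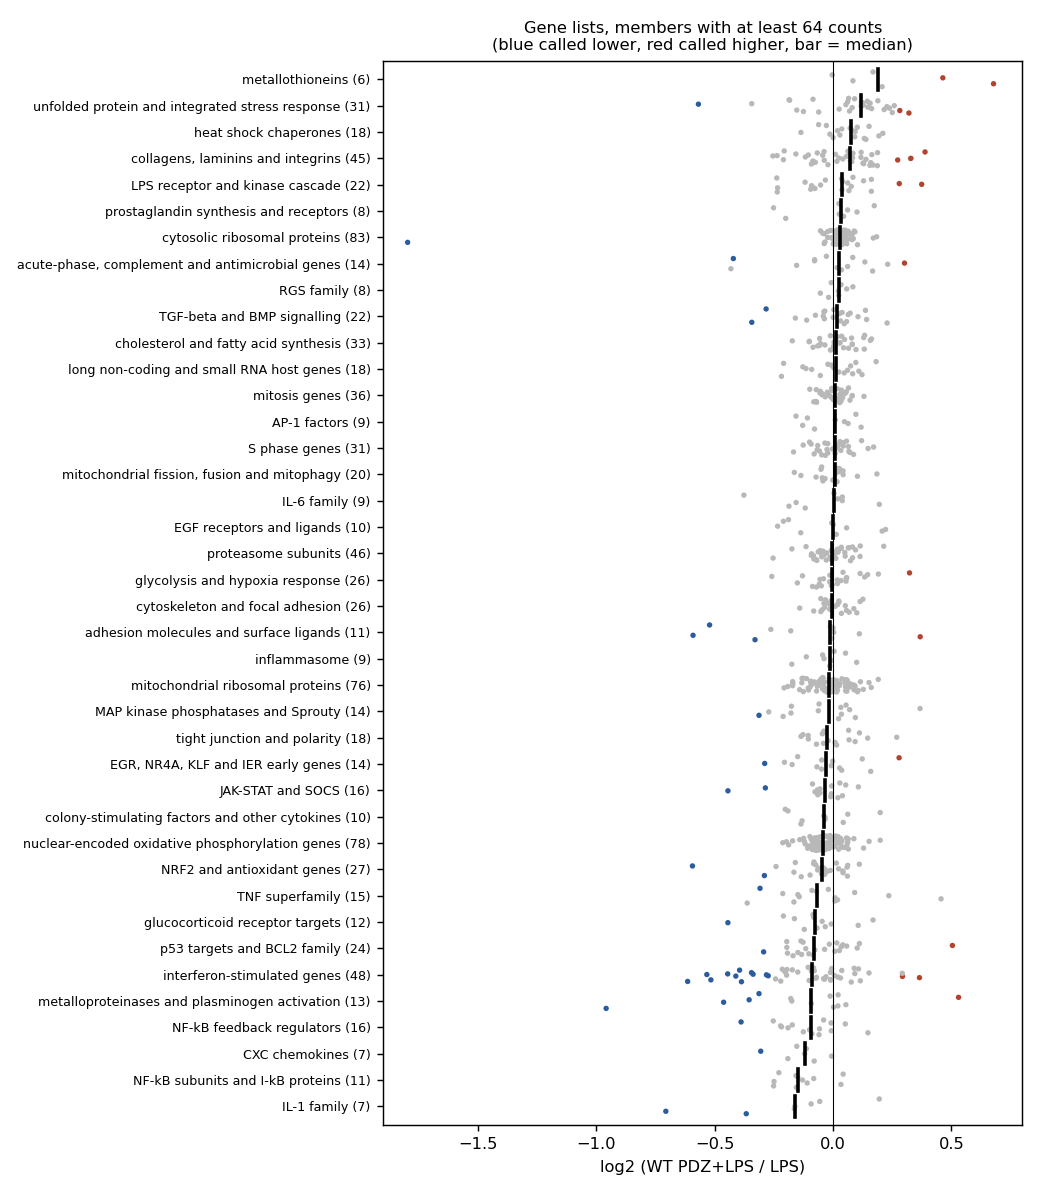
Each point is a member with at least 64 normalized counts at its log2 ratio of WT PDZ+LPS to LPS, each row is a list with its number of such members in brackets, and lists under 5 members are not drawn. Bars are list medians, from -0.16 for the IL-1 family to 0.19 for the metallothioneins; blue points were called lower and red points higher.

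For TNF, NOS2, CXCR2, MRC1 and IL10 the counts were too few for a ratio to be read. TNF had 31 counts in WT PDZ+LPS against 46 in LPS, beside 0 in Control and 29 in mut PDZ+LPS, a log2 ratio of -0.45 (-1.17 to 0.22), and the drop was not detectable at this depth. NOS2 had 1 count in LPS and 2 in WT PDZ+LPS, CXCR2 had 1 in each, MRC1 had 3 and 2, and IL10 had 0 in both. A count of 0 allows up to 3 counts by counting error, and no fold is given for these 4 genes, which had 3 counts or fewer in both libraries.

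The genes 2-fold or more apart with enough counts were RPL21, FAXDC2, IGFL1 and TNNT2, lower, and LOC100499484-C9ORF174, H3F3A, MEF2BNB-MEF2B and BIVM-ERCC5, higher. Besides MMP3, IGFL1 and VNN1, the 15 lowest were RPL21, FAXDC2, TNNT2, NPM2, KRT19, ARHGAP40, GFRA1, PVRIG2P, AGER, PDE4B, ARHGEF3 and KIAA1656, with log2 ratios from -1.80 to -0.72. TNNT2 (cardiac troponin T) had 117 normalized counts in WT PDZ+LPS against 246 in LPS, beside 172 in Control and 268 in mut PDZ+LPS, with a log2 ratio of -1.07 (-1.40 to -0.75). KRT19, a simple epithelial keratin, had 87.9 normalized counts in WT PDZ+LPS against 166 in LPS, beside 188 in Control and 169 in mut PDZ+LPS, with the other 3 libraries close together, and its log2 ratio was -0.91 (-1.31 to -0.54). GFRA1, a receptor for GDNF, had 242 normalized counts in WT PDZ+LPS against 442 in LPS, beside 223 in Control and 262 in mut PDZ+LPS, the LPS library standing above the other 3, and a ratio of -0.86 (-1.10 to -0.64). PDE4B, a cAMP phosphodiesterase of inflammatory cells, had 67.7 normalized counts in WT PDZ+LPS against 116 in LPS, beside 21.8 in Control and 35.2 in mut PDZ+LPS, and its ratio was -0.77 (-1.23 to -0.33). FAXDC2 had 91.2 in LPS and 38.4 in WT PDZ+LPS, a log2 ratio of -1.23 (-1.83 to -0.69).

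At either end stood a gene with near-identical copies. RPL21 had 231 normalized counts in WT PDZ+LPS against 806 in LPS, beside 748 in Control and 443 in mut PDZ+LPS, the lowest ratio at -1.80 (-2.02 to -1.59), while its processed copy RPL21P28 had 14009.5 and 14708 normalized counts in LPS and WT PDZ+LPS, a log2 ratio of 0.07 (0.037 to 0.10). The other 82 measured cytosolic ribosomal protein genes were not called, and the list median was 0.029. The histone gene H3F3A had 299.9 normalized counts in WT PDZ+LPS against 107 in LPS, beside 0 in Control and 319.6 in mut PDZ+LPS, with a ratio of 1.48 (1.17 to 1.81). Its copy H3F3AP4 was at -0.088, and the related gene H3F3B was at 0.0018. Both RPL21 and H3F3A are therefore uncertain, as counting could split their reads among copies.

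Of the 15 highest, 8 were read-through symbols, which join the names of neighbouring genes. They were LOC100499484-C9ORF174, MEF2BNB-MEF2B, BIVM-ERCC5, CHKB-CPT1B, RBM14-RBM4, PMF1-BGLAP, PPT2-EGFL8 and TVP23C-CDRT4, at log2 ratios from 1.81 down to 0.69. BIVM-ERCC5 had 295 normalized counts in WT PDZ+LPS against 147 in LPS, beside 355 in Control and 59.9 in mut PDZ+LPS, and its parts BIVM and ERCC5 had log2 ratios of -0.10 and -0.19. MEF2BNB-MEF2B had 1.26 (0.80 to 1.77) beside -2.30 (-3.54 to -1.43) for MEF2B, of the opposite sign and with fewer counts than the minimum. Read-through symbols were 0.281% of the genes with at least 64 normalized counts, and 10 of the 271 higher and 9 of the 301 lower calls. The other 6 of the highest, beside H3F3A, were PWAR5, NEGR1, MIRLET7DHG, HCG11, CFAP69 and ZNF891, at log2 ratios from 0.69 to 0.99. Of these PWAR5, a non-coding transcript of the Prader-Willi region, had 104 normalized counts in WT PDZ+LPS against 51.7 in LPS, beside 117 in Control and 55.2 in mut PDZ+LPS, with Control close to WT PDZ+LPS.

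**Figure D5:**
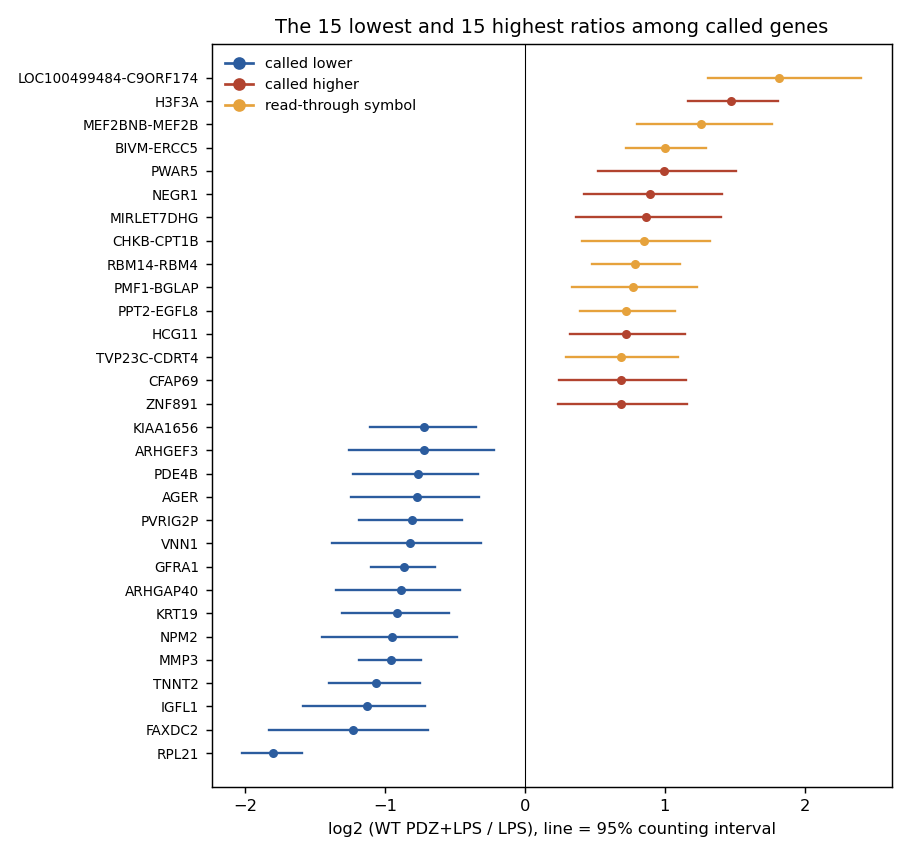
Points are log2 ratios of WT PDZ+LPS to LPS for the 15 lowest and 15 highest called genes, with lines for 95% counting intervals between the 2 libraries. The 8 orange symbols join neighbouring genes and all lie above 0, and RPL21 at -1.80 is the lowest.

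The label of the cells was checked against marker genes. The epithelial keratins KRT7, KRT8 and KRT18 had 41694, 18918 and 15553 counts in LPS, and EPCAM had 37, so this defining epithelial marker was close to absent. VIM, a mesenchymal marker, had 22255. The pan-leukocyte gene PTPRC had 0 counts in all 4 libraries, and the T cell gene CD3E had 0 in LPS and WT PDZ+LPS. The 4 endothelial markers summed to 32.0 normalized counts in LPS and 29.3 in WT PDZ+LPS, the 6 leukocyte markers to 349.9 and 366, nearly all CD68. The 7 epithelial markers summed to 73742 and 68058, and the 5 mesenchymal markers to 61699 and 66314. Among the epithelial markers KRT8 was called lower at -0.30 and KRT19 as given above, while KRT18 had -0.19, KRT5 -0.02, KRT7 -0.018, CDH1 0.12 and EPCAM, under the minimum, 0.50. Their part in the ratios of the other genes was not tested.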

How the data were processed

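RNA of BEAS-2B cells was sequenced in 4 libraries, 1 for each treatment label, and WT PDZ+LPS was compared with LPS. Poly(A) RNA was selected and a directional library kit used. The authors removed adapters and reads under Q20, mapped the rest with TopHat to hg19 (per the submitters' processing notes) and deposited whole-number counts per gene symbol without normalization. The counting tool, its annotation and its use of strand are not given in the sources used here, so overlapping and antisense genes cannot be separated, and no gene coordinates in hg19 are given.

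Size factors came from the median-of-ratios method (DESeq2 1.42.0) and, as an alternative, from TMM (edgeR 4.0.16), in R 4.3.3. Ratios and exact binomial intervals were computed in Python 3.11.15 with scipy 1.17.1, numpy 2.4.6 and pandas 2.3.3, and figures drawn with matplotlib 3.10.9. A call needed a fold of at least 1.2 with 1 normalized count added, a 95% interval that left out equal levels, and a mean of at least 64 normalized counts. The steps were tested on simulated counts with counting error alone and planted changes of 2-fold or 4-fold. That test did not cover smaller folds or spread beyond counting error. The length and GC correction removed a lowess trend (span 0.3, statsmodels 0.14.6) over the longest coding transcript of GENCODE, which 10897 of 11385 genes had.

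The genes compared and the 42 gene lists were chosen with earlier results of these data known. The genes named were the 15 highest and 15 lowest called ratios, up to 4 called members of each list or, failing any, its member with the most counts, 17 genes named by the study, all 2-fold genes with enough counts, and the 5 lowest and 5 highest LPS-induced genes; further members of 5 lists and partners of copies or read-through symbols were added after their values were seen. The alternatives were other scalings, 5 counts added, other count minimums and folds, other limits for LPS-induced genes, and, added after seeing the data, the removal of 123 read-through symbols and the length and GC correction. Some genes that this rule names are not reported here.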

Additional observations from a re-analysis of the deposited data

How the results depend on the processing

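With 1 library a side, the limits are set by counting error and by differences between libraries that no replicate measures. No paired analysis was possible because each group had 1 library and the labels carry no replicate numbers. Under TMM, total-count and upper-quartile scaling, size factors from the pair alone, and 5 counts added, the calls ranged from 248 to 269 higher and from 298 to 334 lower, and none of the named genes that were called changed sign. With no count minimum there were 440 higher, 495 lower and 58 called higher among the genes at least 2-fold lower in mut PDZ+LPS than in Control (the mut-lower genes), and at a minimum of 4 times the 64 counts 119, 146 and 13, as fewer or more genes entered. At a fold of 1.5 there were 34 higher and 41 lower genes, 7 LPS-induced genes lower and 4 mut-lower genes higher, and at a fold of 2 these were 4, 4, 1 and 1. With LPS-induced genes taken at 2-fold and 16-fold, 58 and 14 were called lower, at medians of -0.11 and -0.19, because these sets hold other genes. After correction of the choosing ratio for length and GC content, 17 mut-lower genes were called higher instead of 28; the cause was not tested. The median of the LPS-induced genes stayed between -0.16 and -0.14 under the other settings tried. The median of the cytosolic ribosomal proteins was 0.020 under TMM and 0.019 with size factors from the pair alone, against 0.029 in the report, and the other list medians moved by less than their spread over members. The correction of the ratio itself left 224 higher and 308 lower calls.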

Other observations

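Among the 371 genes named ZNF followed by a number with at least 64 normalized counts, most of them zinc finger transcription factors, 28 were called higher in WT PDZ+LPS than in LPS and 9 lower, at 7.55% and 2.43%, against 2.38% and 2.64% of all genes. This group was noticed after the values had been seen. Its members had a median of 298 normalized counts against 912 over all genes, and calls were more frequent at low counts. Below 1024 normalized counts, 28 of 333 such genes were called higher (8.41%) and 9 lower (2.70%), against 4.14% and 4.24% of the 6114 genes in that range. The median log2 ratio of the group was 0.038.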
